A study of Mus musculus with 88 samples.

Results

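The male D2 arm of the study asked what changes in the nucleus accumbens when an activator built on dCas9 is directed to Fosb in D2 cells. It holds 15 libraries, chosen by their labels, of 88 labelled in the series and 87 with counts. Of these, 7 carried the Fosb guide (targeted) and 8 a non-targeted guide (control). All mice were male, of D2-Cre genotype on a C57BL/6 background, and every mouse, controls included, had received a herpes simplex vector for a nuclease-dead Cas9 joined to CREB(S133D), a mutant of the transcription factor CREB that is always active. A companion vector carried either the Fosb guide g11 or the control guide gNT, and the labels give the virus as Cre-dependent. Tissue was taken 6 days after surgery, and ribosomal RNA-depleted total RNA of the whole dissected piece was sequenced. What share of cells carried the vectors is not known here, and in such bulk tissue fewer cells of a type and less RNA per cell cannot be told apart. The labels give 1 number per library and do not say whether each is a separate mouse, so p-values measure spread between libraries. In edgeR that spread was estimated over all 87 libraries with counts, unless stated, and the permutation tests used libraries of the arm only.

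Fosb encodes FosB and its shortened product ΔFosB, members of the AP-1 family, which bind DNA as pairs of a Fos and a Jun protein. ΔFosB is long-lived and accumulates in striatal neurons after repeated stimulation. CREB is switched on by phosphorylation, binds cAMP response elements and recruits coactivators such as CBP, and it turns on immediate early genes of active neurons. Medium spiny neurons of the accumbens are GABAergic. The D2 class carries the dopamine receptor gene Drd2, the adenosine receptor gene Adora2a and the opioid peptide gene Penk, and the D1 class carries Drd1, Pdyn and Tac1.

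The arm is split over both sequencing batches that the labels name. Batch 1 held 4 targeted libraries (18718, 18777, 18891 and 18893) and 2 controls (18386 and 19099). Batch 2 held 3 targeted libraries (2756, 3128 and 3632) and 6 controls (2755, 3127, 3618, 3619, 3631 and 3803), and no library of another arm. Total counts ran from 24431972 to 69568367 with a median of 38148828, at which a gene without a read is limited to between 0.0431 and 0.123 CPM (counts scaled to a common library total) if 3 counts are taken as the limit. Such limits cover counting error only. Levels below are CPM scaled by TMM unless stated, and log2 fold changes are targeted against control, positive where the targeted libraries were higher.

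Several libraries stood apart before any comparison. Targeted library 3632 had counts for 40854 genes, against 30718 to 36436 in the other 14. Targeted library 3632 and control 3631 carried the highest sums of 16 cortical glutamatergic genes, 1417 and 1526 CPM, with targeted 2756 next at 745.7 and the other batch 2 libraries at 214.8 to 598. Control 18386 of batch 1 had little immune RNA: B2m, the light chain of MHC class I, was at 56.1 CPM against 1319 in control 19099. Results that rest on these libraries are given with and without them.

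Fosb did not pass the test in either direction. The gene (ENSMUSG00000003545) lies on the minus strand of chromosome 7 (mm10, 19302696 to 19310051). It is the gene the guide was aimed at, so its upstream sequence is shown: the 250 bases before the RefSeq start (GRCm38.p6, chr7:19310046-19310295, minus strand, read 5′ to 3′), with the short cAMP response element core TGACG in capitals.
Fosb promoter: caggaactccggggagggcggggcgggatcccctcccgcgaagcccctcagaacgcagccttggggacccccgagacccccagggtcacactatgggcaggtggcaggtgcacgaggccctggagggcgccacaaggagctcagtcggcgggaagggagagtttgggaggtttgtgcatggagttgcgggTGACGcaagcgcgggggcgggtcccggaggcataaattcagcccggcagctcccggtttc
In the window of 250 bases before and 50 after the start, both strands were searched. The full element TGACGTCA, which contains the core, was not found, and 1.79% of 32851 RefSeq promoter windows of that length hold it. The core TGACG was found once on the forward strand and is held by 20.8% of windows. The AP-1 letters TGANTCA were not found and are held by 7.81%.

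In batch 1, Fosb stood at 5.18, 5.07, 6.38 and 5.76 CPM in the targeted libraries and at 6.92 and 2.75 CPM in the controls. The controls lay on either side of all 4 targeted values, with means of 5.6 ± 0.601 (SD, n = 4) and 4.84 ± 2.95 (SD, n = 2). In batch 2, the targeted libraries 2756, 3128 and 3632 had 7.44, 8.19 and 6.13 CPM, and the 6 controls ran from 8.62 to 13.5 with a median of 10.4. All 3 targeted values were below all controls there, with means of 7.25 ± 1.04 (SD, n = 3) and 11.1 ± 1.97 (SD, n = 6). Over both batches edgeR gave a log2 fold change of −0.30 with a standard error of 0.25 and an adjusted p of 1. The exact permutation test within batches, two-sided over 1260 splits, gave a difference of −0.22 and p = 0.352. In batch 1 the difference was 0.35, with exact permutation p = 0.533 over 15 splits, and edgeR gave 0.21 there (unadjusted p = 0.586). In batch 2 alone the difference was −0.60, with exact p = 0.0119 over 84 splits, which is the smallest this layout can give; edgeR gave −0.61 there, with an unadjusted p of 0.0496 and an adjusted p of 1. Over both batches, permuted within them, the difference was −0.09 without library 3632 (exact permutation p = 0.729). Without 3632 and 3128 it was −0.01 (p = 1 by the exact permutation test). Both values also include batch 1, where the difference was above 0. In batch 2, libraries 2756 and 3128 were each below all 6 controls, so the lower values there did not rest on 3632 alone. Library 3632 also stood apart in neuron markers, whose part in the Fosb value was not tested.

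**Figure D1:**
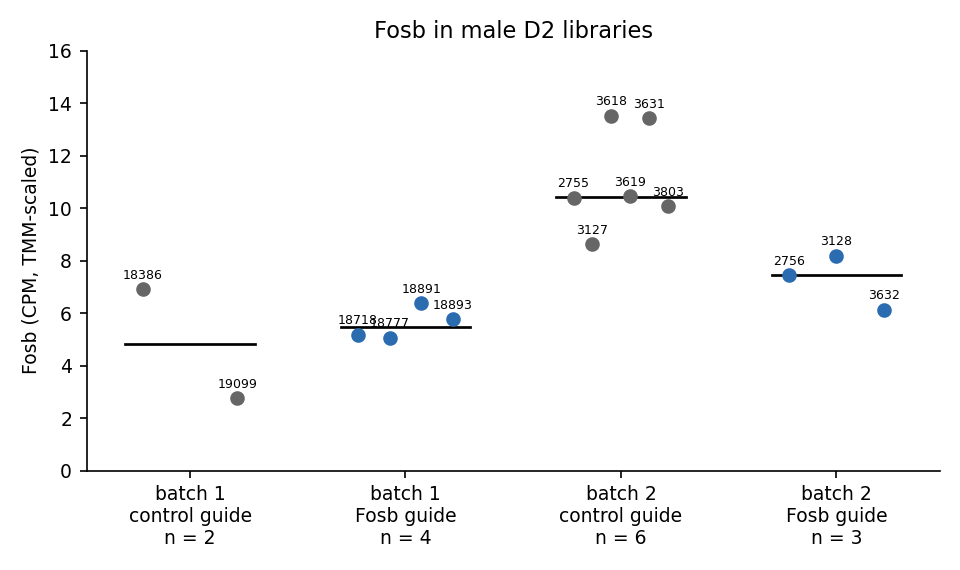
Fosb level (CPM, TMM-scaled, linear axis from 0) in each of the 15 male D2 libraries, split by sequencing batch and guide, with a line at each group median. In batch 2 the 3 targeted libraries sit between 6.13 and 8.19 and all 6 controls at 8.62 or above, while in batch 1 the targeted libraries lie between the controls.

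Across 25420 genes tested, edgeR called 16 genes (0.0629%), all higher with the Fosb guide, at an adjusted p under 0.05. None was lower by that test (0%), while 132 genes (0.519%) were lower and 421 (1.66%) higher at an unadjusted p under 0.05. The 16 fall into groups that differ in sequence, in length and in the library that carries them. There were 9 predicted genes made of major satellite repeat, 2 genes that were highest in the same 2 libraries, 3 long non-coding genes, and 2 genes that were each high in 1 library. Library 3632 held the highest value of 14 of the 16 and library 3128 the second highest of 14. Library 3128 was above all controls of its batch for 15 of the 16, and library 2756 for 1. Without 3632 edgeR called none of 25420, with 599 genes at an unadjusted p under 0.05. Without 3632 and 3128 it called only Gm47518. None was called when the 15 libraries of the arm were fitted alone (1058 at an unadjusted p under 0.05) or with limma-voom (645), and 5 were with DESeq2.

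The 9 satellite genes are Gm10800 and Gm10801 on chromosome 2 (98662237 to 98667301), Gm21738 on chromosome 14 (19415857 to 19418930), and Gm26870, Gm10722, Gm11168, Gm10719, Gm10718 and Gm10717 on chromosome 9 between 3000282 and 3038313. Major satellite is the tandem repeat packed next to mouse centromeres and is normally held silent in heterochromatin. The transcripts of 4 of these genes are shown because they share 1 unbroken run of 42 bases, given in capitals (GENCODE M21 transcripts, positions from 1 at the transcript's 5′ end, Gm26870 as its reverse complement).
Gm10800, 1 to 82: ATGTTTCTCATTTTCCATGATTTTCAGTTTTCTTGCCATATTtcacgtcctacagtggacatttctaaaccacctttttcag
Gm10718, 1 to 82: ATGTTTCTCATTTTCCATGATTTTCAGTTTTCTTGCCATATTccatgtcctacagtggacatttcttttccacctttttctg
Gm21738, 191 to 312: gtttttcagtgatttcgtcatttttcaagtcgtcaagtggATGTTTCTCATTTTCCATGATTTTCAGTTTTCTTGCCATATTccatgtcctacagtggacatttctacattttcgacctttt
Gm26870, 161 to 282 of the reverse complement: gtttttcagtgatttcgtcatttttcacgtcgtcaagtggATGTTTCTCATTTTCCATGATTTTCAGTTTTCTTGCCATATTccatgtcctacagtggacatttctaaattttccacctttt
The run occurs in 11 of the 13 satellite genes listed. Reads from any copy can therefore be assigned to several of these genes, and their split between copies is uncertain.

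Gm10800 had the highest counts of the group. In batch 2 it stood at 30.96 CPM in targeted 2756, 410.7 in 3128 and 3877 in 3632, and the 6 controls ran from 7.37 to 156.8 with a median of 36.47. Library 2756 was thus inside the control range, and 3128 and 3632 were above all controls. In batch 1 the targeted libraries had 1.65 to 10.44 CPM and the controls 4.89 and 5.58. The fold change over the arm was 2.96 on the log2 scale (SE 0.66, edgeR adjusted p = 0.0414). Summed over the 13 satellite genes listed, the level was 5643 CPM in 3632, 633 in 3128 and 43.8 in 2756, against 11 to 234 in batch 2 controls and 3.89 to 15.6 in batch 1.

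The other satellite genes had the same order of libraries at lower levels. Gm10718 stood at 0.41, 4.83 and 42.84 CPM in 2756, 3128 and 3632 and at 0.06 to 1.64 in the batch 2 controls (median 0.43), with a log2 fold change of 4.50 (SE 0.61, edgeR adjusted p = 3.83e-06), the smallest p of the 16. Gm10719 had the largest log2 fold change, 4.96 (SE 0.69, edgeR adjusted p = 5.15e-06), from 0.1, 3.29 and 28.06 CPM against at most 0.94 in controls. Gm21738 reached 735.4 CPM in 3632 and 110.6 in 3128, with controls from 1.62 to 35.63. The remaining log2 fold changes were 3.35 for Gm10722, 3.42 for Gm26870, 3.67 for Gm10801, 4.01 for Gm10717 and 4.08 for Gm11168. Over the 9 tested, of 13 listed, the median log2 fold change was 3.67, beside 0.011 over all 25420 genes, of which 52.7% were above 0. Over the 8 genes still tested, Gm10719 being left out, the median was 1.41 without 3632 and −0.27 without 3632 and 3128. In the 72 libraries of the other arms, all of batch 1, Gm10800 had a median of 5.68 CPM and a maximum of 26.95. Of 28 heterochromatin genes, some of which silence this repeat, 19 were above 0, with a median of 0.05, and none was called. Suv39h1, which encodes a histone H3 lysine methyltransferase of pericentric heterochromatin, had the smallest p, with a log2 fold change of 0.30 (SE 0.10, unadjusted p = 0.00333, edgeR adjusted p = 1). It stood at 19.76 to 23.59 CPM against 14.03 and 18.09 in batch 1, without overlap, and at 9.51 to 10.08 against 6.98 to 9.72 in batch 2, with overlap.

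**Figure D2:**
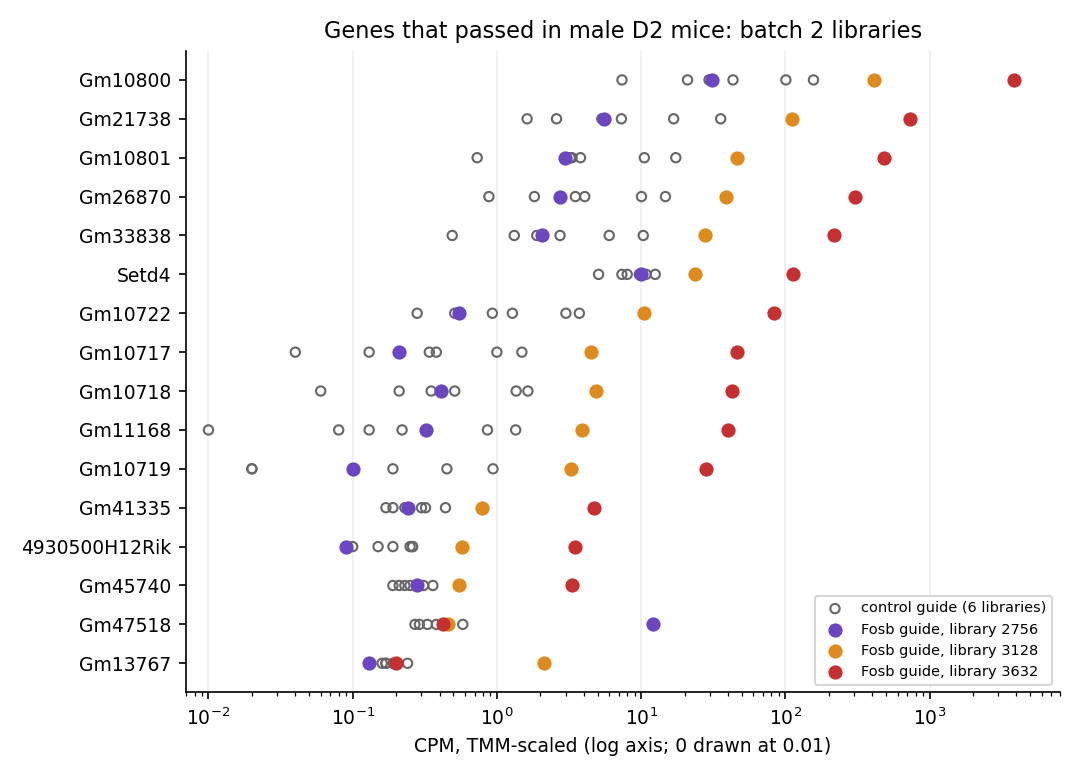
Level of each of the 16 genes called at an adjusted p under 0.05 in the arm (CPM, TMM-scaled, log axis, 0 drawn at 0.01) in the 9 batch 2 libraries: open grey circles are the 6 controls and filled points the 3 targeted libraries. For most genes 3632 is farthest right and 3128 next, while 2756 is above all controls only for Gm47518, at 12.03 CPM.

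Setd4 and Gm33838 were high in the same libraries as the satellite genes. Setd4 (ENSMUSG00000022948, chromosome 16, 93583457 to 93604063, minus strand) encodes a SET domain protein methyltransferase. It stood at 9.91, 23.63 and 113.3 CPM in 2756, 3128 and 3632, and at 5.07 to 12.53 in the batch 2 controls (median 8.87). In batch 1 the targeted libraries had 4.74 to 6.14 CPM, between the controls at 4.48 and 7.57. Libraries 3128 and 3632 alone were above the controls. The other 72 libraries of the series, all of batch 1, did not exceed 8.41, while controls of batch 2 reached 12.53. The log2 fold change was 1.43 over the arm (SE 0.29, edgeR adjusted p = 0.0113) and 2.46 within batch 2 (SE 0.33, edgeR adjusted p = 3.55e-06). Without 3632 and 3128 the value over the arm was −0.03. Of 34 SET domain genes 15 were above 0, with a median of −0.02, and Setd4 was the only one called.

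Gm33838, a long intergenic non-coding gene on chromosome 9 (35301722 to 35307599, minus strand), had no count in the 6 batch 1 libraries of the arm. In batch 2 it stood at 2.07, 27.52 and 218 CPM in 2756, 3128 and 3632, with controls at 0.49 to 10.35 (median 2.32). Its ratio to Gm10800 stayed between 0.0562 and 0.067 in all 9 batch 2 libraries, while Gm10800 itself ran from 7.37 to 3877 CPM. The ratio of Setd4 to Gm10800 was not steady and ran from 0.0292 to 1.09. Genes beside them moved less: of the 12 genes within 250 kb around Gm33838, itself included, 2 were above all batch 2 controls in 3632, the other being Cdon at 20.11 CPM against a control maximum of 20.04. Of the 8 around Setd4 the other was Dop1b (chromosome 16, 93711904 to 93810590), at 179.7 CPM in 3632 against 64.67 to 72.94 in controls. Cbr1, between Setd4 and Dop1b, was at 22.49 CPM, inside the control range of 19.76 to 24.19.

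The 3 long non-coding genes were near 0 everywhere but in batch 2. Gm41335 spans 541 kb of chromosome 15 (63176838 to 63718289), Gm45740 spans 423 kb of chromosome 8 (75992509 to 76415040) and 4930500H12Rik spans 351 kb of chromosome 16 (73072338 to 73423667). Gm41335 stood at 0.24, 0.79 and 4.7 CPM in 2756, 3128 and 3632, with batch 2 controls at 0.17 to 0.44. In Gm45740 and 4930500H12Rik the values in 3632 were 3.33 and 3.49 CPM, against controls of at most 0.36 and 0.26. Log2 fold changes were 2.75 for Gm41335, 2.74 for 4930500H12Rik and 2.38 for Gm45740, with edgeR adjusted p of 0.00234, 0.00234 and 0.00973. Again 3632 was highest and 3128 next, and 2756 was not above the controls.

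For the guide effect within batch 2, in the fit of all libraries split by batch, edgeR called 22 genes (0.0865%), all higher. Fitted on the batch 2 libraries alone it called none, with 602 at an unadjusted p under 0.05. Beyond the 16, these were Rp1, a gene of photoreceptor axonemes, Lmx1a, a transcription factor gene of midbrain dopamine neurons, Abca13, a transporter gene, Ttc6, Gm11867 and 4930455D15Rik. They span between 160 and 492 kb each. In 3632, Rp1 stood at 2.9 CPM, Abca13 at 4.15, Gm11867 at 3.58 and Lmx1a at 1.33, against batch 2 control medians of 0.33, 0.5, 0.3 and 0.11. Of the 22, library 3632 held the highest value of 20 and library 2756 exceeded all controls for 3. Without 3632, 2 were called in batch 2, Gm13767 and Gm47518.

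Genes without any count in batch 1 had more counts in 3632 than in the other batch 2 libraries, a comparison chosen after its values were seen. A count was found in none of the 78 batch 1 libraries of the series for 8625 genes. In CPM of the raw library total, without TMM scaling, these summed to 155 over 1965 genes in 3632, to 32.7 in 3128 and to 21.9 in 2756. The batch 2 controls had 12.6 to 18.9 on that scale. Of 1972 olfactory and vomeronasal receptor genes, which sensory neurons of the nose express, 71.9% had a count in 3632, 23.8% in 3128 and 19.8% in 2756, and 12.3 to 24.6% in the batch 2 controls. Per megabase of gene span, with 8590 of the 8625 genes placed, the counts of 3632 came to a median of 6.76 CPM over the autosomes (4.09 to 10.4), 1.71 on X and 0.775 on Y. In 3128 the autosomal median was 1.09, in 2756 0.502 and in controls 0.337 to 0.585.

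Multiplied by gene span, that autosomal density came close to the level of the long genes in 3632. It gave 3.66 CPM for Gm41335, measured at 4.7, 2.86 for Gm45740, measured at 3.33, and 2.77 for Rp1, measured at 2.9. Over the 9 long genes the measured level was 1.05 to 1.47 times that product. These genes were called through their level in 3632, and long genes that were not called were not compared. The closeness is therefore described for these 9 only. For Setd4 the product was 0.14 CPM against a measured 113.3, for Gm33838 0.04 against 218, and for Gm10800 0.01 against 3877. Whether these counts came from RNA or from DNA was not tested.

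**Figure D3:**
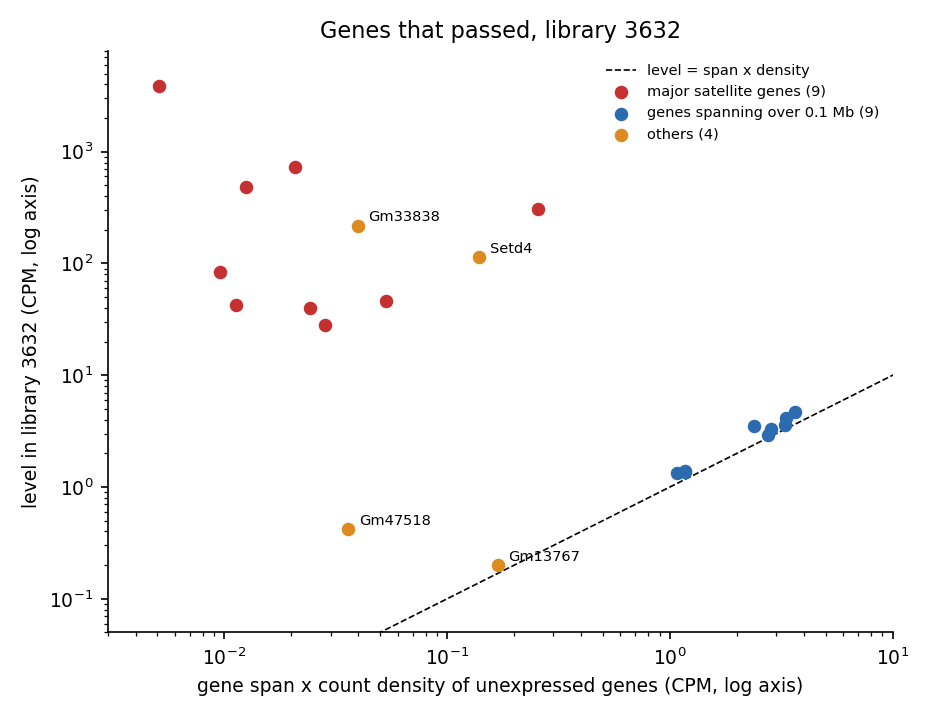
Level in targeted library 3632 (CPM, log axis) of the 22 genes called in batch 2, against gene span times the autosomal count density of genes without a count in batch 1 libraries (CPM, log axis). The 9 genes spanning over 0.1 Mb lie near the dashed line of equality (1.05 to 1.47 times), and the satellite genes, Setd4 and Gm33838 lie far above it.

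The remaining called genes were each high in 1 library. Gm47518 (chromosome 12, 69115014 to 69120347) stood at 12.03 CPM in 2756, 0.46 in 3128 and 0.42 in 3632, at 0.27 to 0.58 in the batch 2 controls and at 0.13 to 0.33 in batch 1. Its log2 fold change was 2.33 (SE 0.52, edgeR adjusted p = 0.0428), and −0.04 without 2756. Gm13767, annotated as an unprocessed pseudogene (chromosome 2, 90358171 to 90383161), stood at 2.13 CPM in 3128 and at no more than 0.24 in the other 14 libraries. Its log2 fold change of 1.47 (SE 0.33, edgeR adjusted p = 0.0481) became −0.12 without 3128. Each call thus rested on a single library.

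No gene outside these groups passed. The next genes are those not called, with a symbol other than a clone name and a mean of at least 1 CPM. Of the higher ones Slc25a21, which encodes a mitochondrial carrier, had the smallest p. It stood at 0.95, 1.25 and 3.96 CPM in 2756, 3128 and 3632 and at 0.56 to 1.67 in the batch 2 controls, with a log2 fold change of 1.08 (SE 0.27, edgeR adjusted p = 0.158). Cdca7 (0.61), Mex3a (0.68) and Dnah14 (0.60) were also highest in 3632 within batch 2, at 11.84, 8.67 and 4.41 CPM, and did not pass. The tubulin genes Tubb5 and Tubb2b, used in growing neurites, had log2 fold changes of 0.34 and 0.53. In batch 1 Tubb2b stood at 120.5 to 153.1 CPM in targeted libraries against 56.2 and 88.8, without overlap, and in batch 2 at 71.98 to 85.76 against 42.36 to 72.77, with overlap. Ighv1-82, an immunoglobulin segment, had a log2 fold change of 3.10 that rested on 11.25 CPM in 3128, 6.21 in 18893, 4.57 in 18777 and 3.15 in 2756, with 2 targeted libraries at 0.

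The lower genes of smallest p had small differences, and none passed. They were Tra2a (−0.32), Zcrb1 (−0.34), Polb (−0.31), Ddx17 (−0.21), Zdhhc14 (−0.29), Hspb1 (−0.60), Nrg1 (−0.31), Alk (−0.41), Rbm12b1 (−0.38) and Paxbp1 (−0.25), all with an edgeR adjusted p of 1. Zdhhc14, which encodes a palmitoyltransferase, was below all controls in both batches. It stood at 22.53 to 26.04 CPM against 30.42 and 34.65 in batch 1, and at 53.13 to 60.29 against 61.64 to 71.56 in batch 2. Nrg1, the neuregulin gene, overlapped between guides in both batches, with 124.1 to 200.4 CPM against 115.5 to 242.1 in batch 2.

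Few genes separated the guides in both batches. All 4 targeted libraries were above both controls for 2611 genes (10.3%) in batch 1 and below both for 2267 (8.92%). In batch 2 all 3 were above all 6 controls for 82 genes (0.323%) and below for 101 (0.397%). In both batches 5 genes were above (0.0197%) and 11 below (0.0433%). Of the 11, those with a mean above 5 CPM were Zdhhc14, Hpf1 (−0.28), Galnt18 (−0.27), Ddx10 (−0.21) and Ccdc112 (−0.26), and the largest unadjusted p among these was 0.147. Hpf1 encodes a partner of PARP enzymes in DNA repair and stood at 18.74 to 20.99 CPM against 20.99 to 24.46 in batch 2, the nearest values being equal at this rounding. The 5 above were Actg-ps1, Galr3, Gm13274, Gm7517 and Gm17058, with means of 3.04 CPM or less.

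Genes that neuronal activity and CREB induce were slightly lower and did not pass. Of 39 activity-induced genes tested 2 were above 0, with a median of −0.17, and none was called; Fosl2 and Dusp1 had an unadjusted p under 0.05. Fosl2, an AP-1 member, stood at 19.96 to 24.43 CPM against 26.58 and 40.58 in batch 1, and at 34.82, 48.72 and 31.06 against 42.26 to 70.9 in batch 2 (log2 fold change −0.48, SE 0.23). The batch 1 values did not overlap, and in batch 2 library 3128 lay among the controls. Nr4a3 (−0.59), Nr4a1 (−0.51), Npas4 (−0.43), Arc (−0.39) and Egr1 (−0.24) were below 0, while Egr3 (−0.03) and Nptx2 (0.00) were not far from it. The list summed to 905.5 to 1074 CPM in batch 1 targeted libraries against 1156 and 1183, and to 1066 to 1250 against 1161 to 1494 in batch 2. The median was −0.20 within batch 1 and −0.15 within batch 2, with 11 of 39 above 0 in each, where 51.5% and 51.8% of all genes were, and −0.12 in batch 2 without 3632. Library 3631, the control richest in cortical genes, had the highest sum of the list, 1494 CPM.

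The AP-1 family itself had 4 of 11 genes above 0 and a median of −0.09. Fos was at −0.31, Jun at −0.09, Junb at −0.11 and Jund at 0.11. In batch 1 the AP-1 median was 0.07, and −0.36 without control 18386. Of 14 CREB family and coactivator genes 6 were above 0 with a median of −0.01, among them Crtc3 at 0.20 and Creb1 at −0.02. Of 14 genes reported as ΔFosB targets 6 were above 0 with a median of −0.02. Arpc4, an actin branching subunit, had the smallest p of these (0.26, unadjusted p = 0.0179, edgeR adjusted p = 1), and Cdk5 (−0.03), Sirt1 (−0.02) and Pdyn (−0.09) lay near 0. Of the 10 tested neighbours of Fosb 8 were above 0 with a median of 0.08 and none was called: Ercc1 was at 0.08, Rtn2 at −0.08 and Vasp at 0.41.

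Defining markers of medium spiny neurons were present in every library and lower in 3 of them. Drd2 stood at 150.5, 175.4 and 82.26 CPM in 2756, 3128 and 3632, and at 39.06 to 204.6 in the batch 2 controls with a median of 193.5; the lowest was 3631. Penk was at 268.3, 549 and 171.1 CPM against 88.5 to 520.7, and Adora2a at 80.79, 159.9 and 61.3 against 18.82 to 134.4. In each gene 3631 was lowest, followed by 3632 and 2756. The median log2 fold change of 9 D2 markers tested was −0.12 with 2 above 0, that of 10 D1 markers −0.04 with 3 above 0, and that of 21 identity genes −0.07 with 3 above 0. None was called. Within batch 2 all 21 identity genes were below 0 with a median of −0.13, and without 3632 the median was 0.03 (13 of 21 above 0). It was −0.10 (2 of 21) without 3632 and 3631, and −0.33 (0 of 21) without 3632 and 3128.

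Slc17a7, the vesicular glutamate transporter gene of cortical neurons, ran the other way. It stood at 269.4, 123 and 639.5 CPM in 2756, 3128 and 3632, and at 12.4 to 763.7 in the batch 2 controls, with 3631 highest. In batch 1 it was at 4.32 to 13.58 CPM in targeted libraries and at 37.06 and 237.6 in controls, 18386 being the higher. The cortical list had a median of −0.15 over the arm, −1.05 within batch 1, −0.17 there without 18386, 0.28 within batch 2 and −0.05 (6 of 16 above 0) in batch 2 without 3632. The part of these neuron markers in the other results was not tested.

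**Figure D4:**
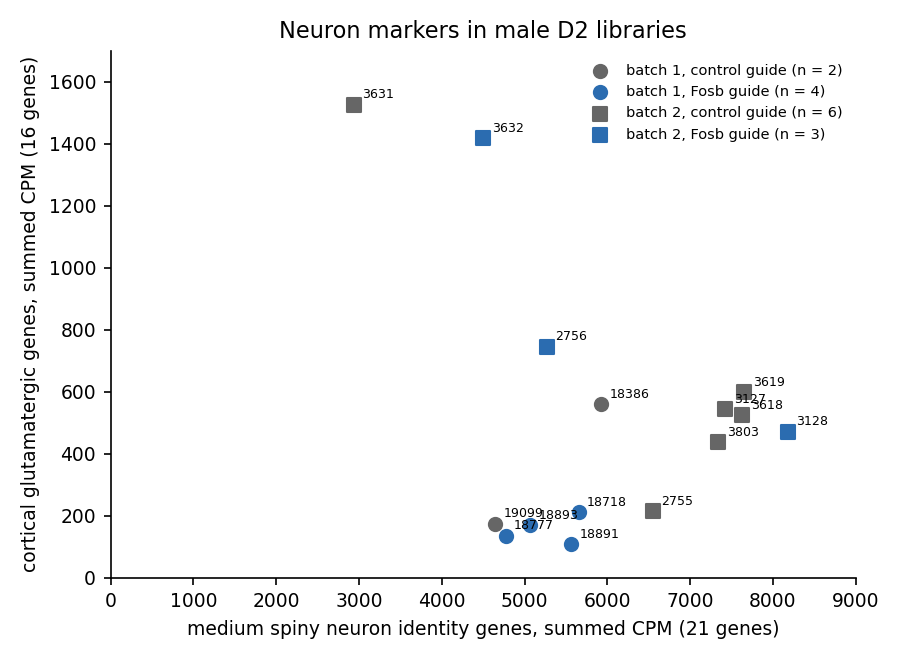
Summed CPM of 16 cortical glutamatergic genes against summed CPM of 21 medium spiny neuron identity genes in each male D2 library, by batch and guide. Control 3631 and targeted 3632 have the lowest identity sums (2936 and 4501) and the highest cortical sums (1526 and 1417).

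Neuropeptide genes were mostly below 0, with 2 of 20 tested above 0 and a median of −0.20. The median was −0.03 (9 of 20 above 0) in batch 2 and −0.44 (5 of 20) in batch 1, where it was −0.13 (9 of 20) without 18386. Nts, neurotensin, had the smallest p (−0.81, SE 0.40, unadjusted p = 0.0448, edgeR adjusted p = 1). It stood at 1.82, 9.38 and 1.25 CPM against 1.97 to 15.78 in batch 2, with overlap. Cartpt, the CART peptide gene, was at 5.76, 22.36 and 5.71 CPM against 6.71 to 32.56 there, so 2756 and 3632 were below all controls and 3128 among them. Sst, somatostatin, differed in sign by batch, −1.50 in batch 1 and 0.27 in batch 2; the batch 1 controls were at 50.66 CPM in 18386 and 14.31 in 19099, against 7.96 to 15.94.

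MHC class II, T cell, complement and microglia lists had higher medians in batch 1 than in batch 2. Within batch 1 edgeR called none of 25420 genes (0%), with 1295 higher (5.09%) and 594 lower (2.34%) at an unadjusted p under 0.05. MHC class II genes had a median of 1.62 with 11 of 11 above 0, T cell and cytotoxic genes 1.46, complement 1.38 and microglia 0.81. In batch 2 these medians were 0.14, 0.06, 0.03 and −0.04, and without 3632 they were 0.40, 0.51, 0.23 and 0.18. H2-Aa, a class II chain, stood at 385.7, 689.7, 636.2 and 491.5 CPM in targeted libraries and at 350.1 in control 19099, but at 7.99 in control 18386. Without 18386 the batch 1 medians were 0.65, 0.56, 0.57 and 0.26. Interferon-stimulated genes were at −0.14 in batch 1, at −1.08 (1 of 34 above 0) there without 18386 and at 0.24 (32 of 34) in batch 2. Control 19099 had the highest sum of that list in the arm, 5174 CPM. Over the arm all 20 MHC class I genes were above 0 (median 0.49), as were all 22 proliferation genes (median 0.50), and none was called. In batch 1 these medians were 0.80 and 1.03, and without 18386 −0.06 (7 of 20 above 0) and 0.28 (21 of 22). In batch 2 they were 0.23 (20 of 20) and 0.18 (21 of 22).

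Some genes did separate the guides in batch 1 with both controls below, as 10.3% of all genes did there. Cd81, a tetraspanin, stood at 321.2 to 370.7 CPM against 201.6 and 238.6 in batch 1 (log2 fold change 0.63, SE 0.14, edgeR adjusted p = 0.198), and overlapped in batch 2 at 164.4 to 186.4 against 150.9 to 186.8. Ifi27, an interferon-induced gene, stood at 80.98 to 139 CPM against 33.27 and 37.43 in batch 1 (1.76, SE 0.38, edgeR adjusted p = 0.198) and at 32.75 to 43.95 against 30.59 to 43.92 in batch 2. Pipox (1.96) had the same adjusted p there, 0.198. Slc1a3, the astrocyte glutamate transporter, was at 538.9 to 1096 CPM against 246.7 and 394.3 in batch 1 (1.51, unadjusted p = 5.1e-05) and at 0.03 on the log2 scale in batch 2. With DESeq2, 8 genes passed within batch 1: these 4 with Gpr37l1, Aco1, Oat and Oplah. Of 25420 genes none was called for a difference of the guide effect between batches (0%), with 1093 (4.3%) at an unadjusted p under 0.05. Setd4 had the smallest p of that difference (2.62, SE 0.53, edgeR adjusted p = 0.131), and neither Cd81 nor Slc1a3 was called.

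Myelin genes were above 0 in 20 of 20, with a median of 0.24 over the arm, 0.39 within batch 1, 0.62 there without 18386, 0.16 within batch 2 and 0.01 in batch 2 without 3632. Cnp, a myelin enzyme, stood at 289.2 to 429.6 CPM against 214 and 222.1 in batch 1 and at 249.5, 355.6 and 351.5 against 241.5 to 305.3 in batch 2. Library 2756 lay among the controls there. Its log2 fold change was 0.44 (SE 0.19, unadjusted p = 0.0194, edgeR adjusted p = 1). The homeostatic astrocyte list had a median of 0.15, 0.32 in batch 1, 0.65 there without 18386, −0.05 in batch 2 and −0.14 in batch 2 without 3632.

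**Figure D5:**
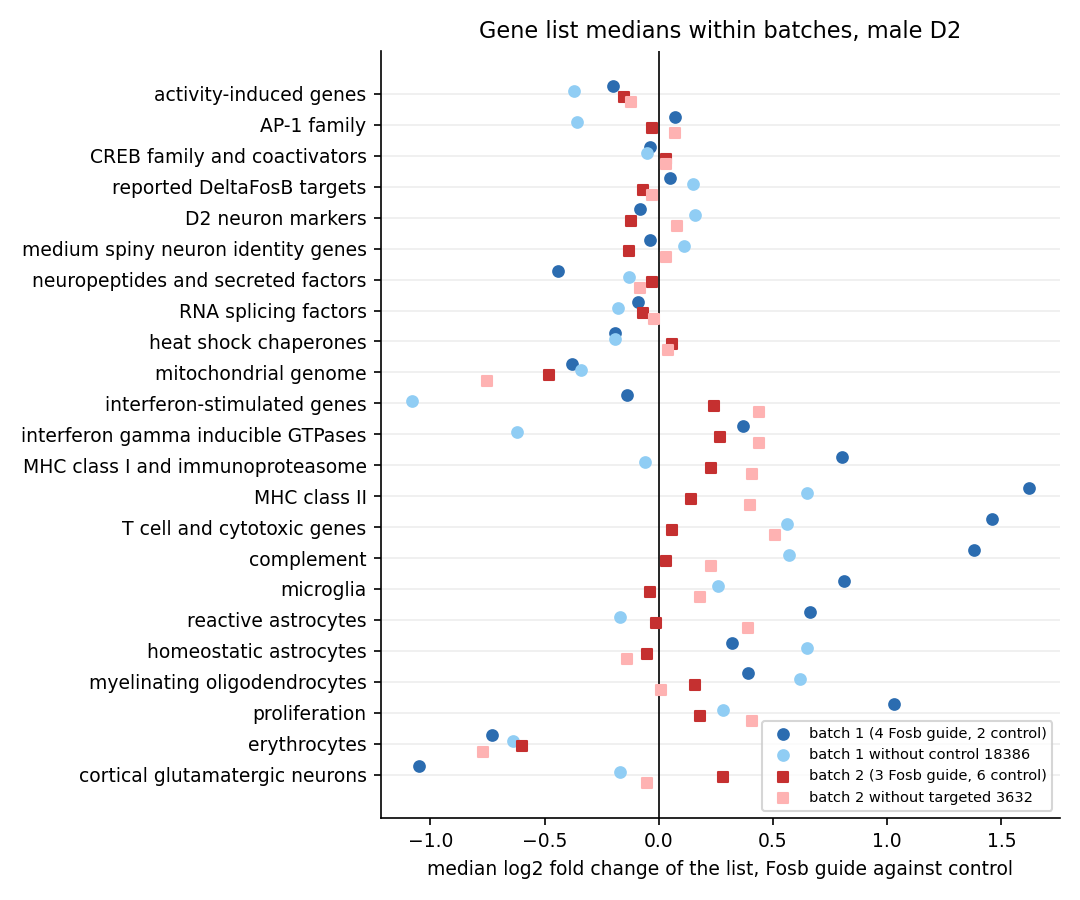
Median log2 fold change, Fosb guide against control, of 23 gene lists within batch 1 (dark blue), within batch 1 without control 18386 (light blue), within batch 2 (red) and within batch 2 without targeted 3632 (pink). MHC class II lies far right in batch 1 (1.62), less so without 18386 (0.65), at 0.14 in batch 2 and at 0.40 there without 3632, and the activity-induced list is left of 0 in all 4.

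Splicing factors, mitochondrial transcripts and globins were also mostly below 0 over the arm, with none called. Of 35 splicing factors 7 were above 0 with a median of −0.08, and Tra2a, Zcrb1, Pnisr and Luc7l3 had an unadjusted p under 0.05. Tra2a stood at 29.92 to 36.43 CPM against 48.09 and 52.14 in batch 1, without overlap, and at 58.16, 52.12 and 42.03 against 49.43 to 65.6 in batch 2. Heat shock genes had a median of −0.05 over the arm, −0.19 (5 of 24 above 0) in batch 1 and 0.06 (16 of 24) in batch 2, with none called. In batch 1, 8 of 24 were lower at an unadjusted p under 0.05, where 2.34% of all genes were. In batch 2 none was, where 0.185% of all genes were. Chordc1, an HSP90 co-chaperone, was at 44.27 to 49.23 CPM against 67.69 and 83.48 in batch 1 and at 51.85 to 61.57 against 50.14 to 63.43 in batch 2.

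All 13 mitochondrially encoded genes were below 0 with a median of −0.42. Their sum was lowest in targeted 3128, 2766 CPM, and in targeted 18777, 3349, against 4786 to 7720 in the batch 2 controls and 5283 and 5405 in the batch 1 controls. The other 5 targeted libraries had 4928 to 6925 CPM, inside the range of all controls over both batches. In batch 1, 18891 (6625) and 18893 (6925) were above both controls and 18718 (5280) was just below them. In batch 2, 2756 and 3632 were inside the control range. The list median was −0.38 in batch 1 (4 of 13 above 0) and −0.48 in batch 2 (0 of 13). Erythrocyte genes, which mark blood left in the tissue, were below 0 in 8 of 8 with a median of −0.69. Hbb-bs, a globin, stood at 125.3 to 201.4 CPM against 299.5 and 309.4 in batch 1, without overlap, and at 9.09 to 14.84 against 10.61 to 37.3 in batch 2. The median was −0.60 in batch 2 and −0.77 there without 3632.

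The guide effect of this arm was set against those of the female D2 and male D1 arms, each through its own controls. Against female D2 mice no gene of 25420 was called (0%), and 321 (1.26%) had an unadjusted p under 0.05. Against male D1 mice none was called (0%), with 468 (1.84%). Among genes with a symbol other than a clone name and a mean of at least 1 CPM, Setd4 was among the smallest p of both. It stood at 1.49 (SE 0.42) against female D2 and 1.72 (SE 0.46) against male D1, with edgeR adjusted p of 1 and 0.623. All 9 satellite genes tested were also above 0 in both, each with an edgeR unadjusted p under 0.05. The smallest was 3.4e-05 for Gm10718 against female D2 (adjusted p = 0.865) and 5.4e-06 for Gm10801 against male D1 (adjusted p = 0.0996). Pole2 had 4.27 against female D2 through 1 female control library at 283.1 CPM, and stood at 0.62 to 3.56 CPM in the male D2 libraries. Fosb differed by 0.07 (SE 0.34) from the female D2 effect and by −0.78 (SE 0.37, unadjusted p = 0.0408, edgeR adjusted p = 1) from the male D1 effect. All female D2 and male D1 libraries were of batch 1.

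Within the male D2 mice the batches differed far more than the guides did. Batch 2 against batch 1 gave 15839 called genes (62.3%), 8295 higher (32.6%) and 7544 lower (29.7%). Among these were Cmss1, at 7.72 ± 0.282 (SD, n = 4) CPM in targeted libraries of batch 1 and 938 ± 424 (SD, n = 3) in those of batch 2, and Rpl13, a ribosomal protein gene, at 444 ± 46.9 and 44.9 ± 4.46. The difference followed gene structure. Genes without introns in their span had a median batch log2 fold change of −0.83 (4895 genes), and those with 98 to 100% of their span intronic had 1.61 (936 genes). An overlapping pair also differed in ratio between batches, B2m lying inside Patl2. The count of Patl2 was 2.1e-05 to 0.0021 of that of B2m in batch 1, and 1.04 to 1.09 of it in batch 2. Counting and tissue cannot be told apart in a difference between batches.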

How the data were processed

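Per the submitters' processing notes, the tools were Trim Galore, HISAT2, SAMtools, Subread with featureCounts, and DESeq2 1.27, and the build was mm10. The annotation and the strand setting are not stated in those sources. The table the authors deposited holds read counts per gene, whole and not normalized, for 55487 genes; 1 column without a label was left out, and 1 labelled library of another arm was not analysed here.

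Counts of 87 libraries were fitted with edgeR 4.0.16 in R 4.3.3 (quasi-likelihood, robust, TMM, filterByExpr, 12 groups and batch), with Benjamini-Hochberg adjustment over 25420 genes at 0.05. A second model split the male D2 groups by batch. The fit was first tested on simulated data. Fosb was tested by exact permutation on log2 CPM (prior count 2). Positions came from GENCODE M21 and promoters from RefSeq.

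The 48 gene lists, the members and the comparisons were chosen with earlier results of these data known. Named were Fosb, all called genes, the 10 of smallest p per direction (mean of at least 1 CPM, established symbol), up to 3 further genes per other comparison, and list members of smallest p; others given with values were chosen after these were seen. Lists are described by counts and medians without a test. Alternatives were DESeq2 1.42.0, DESeq2 size factors, limma-voom 3.58.1, no filter, no batch term, the arm or a batch alone, and leaving out libraries.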

Additional observations from a re-analysis of the deposited data

Results flagged for a closer look

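Within each guide group, over both batches, a library was set apart where its gap to the nearest other library exceeded Dixon's limit for the group's range. The limit sets apart about 1 in 20 groups by chance only where values come from 1 normal spread. Each group here pools both batches on an unlogged scale, so that rate does not hold and a batch difference can set a library apart. The genes below share reads or libraries, so they are not separate signals. Neither guide group is from 1 batch, and most of these values lie in batch 2.

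Targeted library 3632 was far above the other 6 targeted libraries for Gm10800 (3877 CPM), Gm21738 (735.4), Gm10801 (485), Gm26870 (304.7), Gm33838 (218), Setd4 (113.3), Gm10722 (84.1), Gm10717 (45.97), Gm10718 (42.84), Gm11168 (40.11) and Gm10719 (28.06), and for the summed satellite list (5643 CPM). The same library was highest for Mex3a (8.669 CPM), Gm41335 (4.704), Slc25a21 (3.965), 4930500H12Rik (3.495) and Gm45740 (3.333). Among controls, 3618 was far above the others for Gm21738 (35.63 CPM). Targeted library 2756 stood apart for Gm47518 (12.03 CPM) and for the lowest sum of myelinating oligodendrocyte genes (2203 CPM). Targeted library 3128 stood apart for Gm13767 (2.131 CPM), for the highest sum of medium spiny neuron identity genes (8184 CPM) and for the highest sum of striatal cAMP and G protein signalling genes (8399 CPM).

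Control 3631 had the lowest sums of D2 neuron markers (424.5 CPM), D1 neuron markers (200.9) and cholinergic interneuron genes (43.37), and the highest of cortical glutamatergic genes (1526) and of septal and pallidal genes (211.1). Control 19099 had the highest sums of interferon-stimulated genes (5174 CPM), chemokines (1117) and B cell and immunoglobulin genes (244.9), and the lowest of circadian clock genes (865.6).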

How the results depend on the processing

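The 16 genes called over the arm became 122 with no low-count filter, 427 with no batch term (409 higher, 18 lower), 5 with DESeq2 and 13 with its size factors. None was called with limma-voom (645 at an unadjusted p under 0.05), the arm alone (1058), batch 1 libraries only (1794), batch 2 alone (602), or without 3632 and 3631 (443, chosen after seeing the data), and 1 without 3632 and 3128. Leaving out 1 library gave 0 to 22, 0 without 3632. Within batch 1 the count of 0 became 8 with DESeq2, 2 with the arm alone (Chordc1 and Ifi27) and 1 without 18386 (Dll3). Within batch 2 the 22 became 169 with no filter, 13 with DESeq2, 3 with limma-voom and 0 with the arm alone (290 at an unadjusted p under 0.05). It was 1 without 3632 and 3128, 2 without 3632 and 3631, 2 without 3632, 21 without 3128 and 22 without 18386. No other single library was left out of the model split by batch. The difference between batches gave 1 gene without 3128 (Setd4), 1 without 3632 and 3128 (Gm47518), and none without 3632 or without 18386. Both differences from other arms stayed at 0 in each setting run.

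Signs turned with batch 1 libraries only for Fosb (0.17), Gm10717 (−1.51), Setd4 (−0.19), Gm47518 (−0.44) and Gm13767 (−0.19). They turned without 3632 and 3128 for Gm41335 (−0.06), Gm10717 (−1.47), Gm33838 (−0.85), Gm21738 (−0.28), Gm11168 (−1.49), Gm10722 (−0.30), Setd4 (−0.03), Gm10800 (−0.26) and Gm13767 (−0.28). They also turned without 2756 for Gm47518 (−0.04) and without 3128 for Gm13767 (−0.12); with 1 library left out these ran from −0.04 to 2.72 and from −0.12 to 1.73. Over all settings of named genes, 731 values kept direction and call, 122 lost and 12 gained the call, and 16 turned. Beyond the libraries named, the cause was not tested. No paired analysis was possible because the targeted and control libraries of the arm share no replicate numbers.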

Other observations

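The lists not described above held no called gene, with medians given beside 0.011 over all genes. Potassium channel genes were mostly below 0 (5 of 30 above 0, median −0.10), as were AMPA and NMDA receptor subunits (1 of 11, −0.08) and GABA-A receptor subunits (3 of 12, −0.07). Striatal cAMP and G protein signalling genes (9 of 25, −0.03) and excitatory synapse scaffolds (12 of 21, 0.03) were close to 0, and so were cytosolic ribosomal proteins (29 of 39, 0.03), nuclear oxidative phosphorylation genes (19 of 42, 0.00), glucocorticoid-responsive genes (11 of 20, 0.02), and septal and pallidal (6 of 15, −0.03), cholinergic (5 of 12, −0.03) and GABAergic interneuron genes (7 of 15, −0.02). Small non-coding RNAs of the spliceosome and ribosome had 7 of 18 above 0 and a median of −0.08. Of the circadian clock genes, 9 of 19 were above 0 (median −0.01). Arntl, which encodes the clock activator BMAL1, was at −0.34 (unadjusted p = 0.0204), and stood at 13.4 to 16.2 CPM in targeted libraries of batch 1 against 17.8 and 20.69 in controls. Ciart, a repressor of the same clock, was at 0.53 (unadjusted p = 0.0314), with 7.41 to 13.6 CPM against 3.78 and 5.25 there. Both genes separated the guides in batch 1 and overlapped in batch 2, where their log2 fold changes were −0.27 and 0.06, and edgeR gave both an adjusted p of 1 over the arm.

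Among vascular and immune lists, endothelial and pericyte genes had 9 of 22 above 0 and a median of −0.09. Cldn5, a tight junction gene of the blood-brain barrier, was at −0.46 and the pericyte gene Rgs5 at −0.42 (unadjusted p = 0.0276 and 0.0396). In batch 2 Cldn5 stood at 10.65, 8.48 and 10 CPM in 2756, 3128 and 3632, and at 7.29 to 16.77 in controls, with overlap. Meningeal and fibroblast genes (8 of 14, 0.11), choroid plexus and ependymal genes (13 of 16, 0.31), oligodendrocyte precursors (13 of 14, 0.17), reactive astrocytes (16 of 23, 0.29), chemokines (12 of 18, 0.19), interferon gamma inducible GTPases (15 of 15, 0.30) and B cell and immunoglobulin genes (15 of 16, 0.78) were above 0 in most members. Within batch 1 without control 18386, the GTPases were at −0.62 (4 of 15 above 0), B cell genes at −0.18 (5 of 16), chemokines at −0.65 (4 of 18) and reactive astrocytes at −0.17 (8 of 23). In batch 2 these 4 medians were 0.27, 0.85, 0.16 and −0.01. In batch 2 Igkc, the kappa light chain constant segment, stood at 39.11 CPM in 2756, 35.58 in 3128 and 0.52 in 3632, against 0.32 to 19.47 in controls, so 3632 was among the controls and the other two above them. Interferon-stimulated genes had 20 of 34 above 0 (0.07), and Y-linked genes 1 of 4 (−0.06).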
